A study of Arabidopsis thaliana with 31 samples.

Results

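The chlorophyll biosynthesis genes of Arabidopsis thaliana described here are 10 nuclear genes, and they were followed by the 3′ ends of their polyadenylated mRNAs: HEMA1, CHLH, CHLI1, CHLD, GUN4, CHLM, CRD1, PORA, PORB and PORC. The genes were chosen with earlier results of these data known. Their reads were then taken by gene identity alone, as those whose alignment named a transcript of the gene, with no measured value in this rule. This gave 10 of the 19829 genes named in the library and 7623 of its 2786281 reads (0.274%; 95% Clopper-Pearson interval, 0.267 to 0.280%). All 7623 could be placed on the genome, 7606 were on the sense strand of the named transcript and 17 were listed antisense. The library came from Col wild-type plants, harvested whole as seedlings at the age of 2 weeks after growth on Murashige and Skoog plates with sucrose under 16 h of light and 8 h of darkness. The plants carried no mutant allele or transgene. This was the only 1 of the series' 31 samples analysed here. There was thus no second group, no replicate error and no test between conditions, and every value below describes this library. In poly(A)-seq, total RNA is partially cut with RNase T1, fragments with a poly(A) tail are selected, and an adaptor is joined to the end of the tail, so that a read runs through the last stretch of the transcript into its tail. The base before the tail is called the 3′ end here.

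Chlorophyll is made in the plastid by enzymes encoded in the nucleus. The pathway starts from glutamate bound to a transfer RNA, builds the tetrapyrrole ring of protoporphyrin, and splits there into a branch with iron, which leads to heme, and a branch with magnesium, which leads to chlorophyll. In flowering plants the late step that reduces protochlorophyllide needs light, which ties greening to the light environment, and the first enzyme and the chelatase that inserts magnesium are the main control points known from plants. Where an mRNA ends sets the length of its 3′-untranslated region (3′-UTR). In plants the cleavage site usually lies behind an A-rich near-upstream element, of which AAUAAA is the best known form but not a required one.

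The sequences that carried the 3′ ends are shown first, because the results on end choice refer to them. Each line gives the 30 bases that lead up to and include the most used 3′ end of a gene, in pathway order, on TAIR10.1 and read 5′ to 3′ on the gene's own strand. Capitals mark AATAAA lying 10 to 30 nt before the end or, where there was none, each hexamer in that window that differs from it by 1 base. Lines all in lower case held neither.
HEMA1, chr1:21623736-21623765, minus strand: gttcttgcAATATAgagaaatgtttttttc
CHLH, chr5:4387410-4387439, minus strand: ttatatgaatgttgtggagcttcttctttc
CHLI1, chr4:10201780-10201809, minus strand: ctgattgAATATAgagtctatgctttattc
CHLD, chr1:2700898-2700927, plus strand: aaattatAAGAAATGAAattttgttttaac
GUN4, chr3:21948774-21948803, minus strand: catatcattAATTAAAtcggatttctcttc
CHLM, chr4:12878583-12878612, plus strand: gtccaaaaacatgtctatacttttctaccc
CRD1, chr3:21078353-21078382, plus strand: ttttttttgcAATAAActtttactgcatat
PORA, chr5:21991009-21991038, minus strand: AATAATtccacttttcaagttttttttgtc
PORB, chr4:13727266-13727295, plus strand: aagaAATAAAaatggcgaatctttagcttt
PORC, chr1:909308-909337, plus strand: tatgatcaatcagactaatcattcgaatgc

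AATAAA itself was present before the most used end of 2 of the 10 genes, PORB and CRD1. Over the 9365 genes with at least 20 sense reads, the same window held it in 11.1%. With a window of 10 to 40 nt the count stayed at 2 of 10, beside 12.1% of all these genes. A hexamer within 1 base of AATAAA was found in 7 of 10, beside 44.0%, and the windows of CHLH, CHLM and PORC held none. With 10 genes these shares are counts and no more, and a missing hexamer says only that these letters are not in this window. The last base was C at the most used end of 8 genes, beside 38.0% of all genes with at least 20 reads, and T in CRD1 and PORB. The next genomic base was A in 9 of 10, the exception being HEMA1 with T, and it was A in 90.5% of all genes with at least 20 reads. Because tails were trimmed from the sequenced end inwards, a genomic A that follows the end cannot be told apart from the first A of the tail.

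All 10 genes were read, over a 73.9-fold range from CHLH to PORA. Each mRNA molecule has a single 3′ end, so reads per gene were compared without division by length. They are given as reads and as reads per 1000000 listed reads (RPM). A lower count may come from fewer cells that use a gene or from less RNA per cell, which cannot be told apart in whole seedlings. The authors used only reads in which the adaptor behind the tail was recognizable. A count may therefore also depend on the length of tail and fragment, which was not tested. The library held a median of 20 reads per named gene (quartiles, 6 and 63), and 8 of the 10 genes had at least 100. The chlorophyll biosynthesis genes other than PORA and CHLD each had more reads than 92.2% or more of the named genes.

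HEMA1 (AT1G58290; chromosome 1, 21623700 to 21626402, minus strand), which encodes the glutamyl-tRNA reductase that opens the pathway, had 962 reads, or 345 RPM (95% interval, 324 to 368). HEMA2, a second gene for that enzyme, had 16 reads, 60.1-fold fewer, and HEMA3 had none, which allows up to 3 reads or 1.08 RPM. The reads of this enzyme therefore came almost wholly from HEMA1.

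The genes of magnesium chelatase were unequal. CHLH (AT5G13630, listed as GUN5; chromosome 5, 4387307 to 4392429, minus strand) encodes the large subunit that holds the porphyrin, and it had 2292 reads, or 823 RPM (789 to 857), the most of the 10 genes and rank 153 of the library. CHLI1 (AT4G18480; chromosome 4, 10201672 to 10203469, minus strand) encodes the ATPase subunit and had 403 reads, or 145 RPM (131 to 159). CHLD (AT1G08520, listed as ALB1; chromosome 1, 2696381 to 2701022, plus strand) encodes the subunit that joins the ATPase ring to CHLH and had 95 reads, or 34.1 RPM (27.6 to 41.7). Of the 2790 reads of the 3 subunit genes, CHLH thus held 82.2% (80.7 to 83.6%), CHLI1 14.4% and CHLD 3.41%. CHLI2, the other gene for the ATPase subunit, had 37 reads, 10.9-fold fewer than CHLI1. GUN4 (AT3G59400; chromosome 3, 21948501 to 21949796, minus strand), a porphyrin-binding activator of the chelatase, had 361 reads, or 130 RPM (117 to 144). Its interval overlapped that of CHLI1.

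The next enzymes in the magnesium branch stood close to each other. CHLM (AT4G25080; chromosome 4, 12876822 to 12878703, plus strand) encodes the methyltransferase that acts on magnesium protoporphyrin, and it had 1055 reads, or 379 RPM (356 to 402), an interval that overlapped that of HEMA1. CRD1 (AT3G56940; chromosome 3, 21076505 to 21078443, plus strand) encodes a subunit of the cyclase that closes the fifth ring, and it had 1337 reads, or 480 RPM (454 to 506). CHLH and CRD1 together held 47.6% of the reads of the 10 genes.

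The genes of the light-dependent protochlorophyllide oxidoreductases were unequal too. PORB (AT4G27440; chromosome 4, 13725546 to 13727440, plus strand), the form known for its presence both in dark-grown and in green tissue, had 831 reads, or 298 RPM (278 to 319). PORC (AT1G03630; chromosome 1, 907523 to 909650, plus strand), known as the form of light-grown plants, had 256 reads, or 91.9 RPM (81.0 to 104). PORA (AT5G54190; chromosome 5, 21990864 to 21992814, minus strand), best known from dark-grown seedlings and for its fall in the light, had 31 reads, or 11.1 RPM (7.56 to 15.8). PORB held 74.3% (71.7 to 76.9%) of the 1118 POR reads, PORC 22.9% and PORA 2.77%. PORB reads were thus 3.25-fold those of PORC and 26.8-fold those of PORA. The hour of harvest in the daily light cycle is not given in the sources used here.

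The order by reads was CHLH, CRD1, CHLM, HEMA1, PORB, CHLI1, GUN4, PORC, CHLD and PORA. Neighbours in it were separate beyond their counting intervals except CHLM with HEMA1 and CHLI1 with GUN4. These intervals cover counting error only, since no molecular identifiers mark single molecules and 74.4% of the sense reads of these genes repeated the start and end of another read (76.8% over the library). The repeats were uneven among the genes. In CHLH, 659 of 2290 sense reads (28.8%) shared a single pair of start and end, and each distinct read was seen 6.88 times on average. In PORA and CHLD it was 2.07 and 2.26 times. Counted as distinct reads, CRD1 came first with 443, followed by CHLM with 351, CHLH with 333, HEMA1 with 271, PORB with 163, CHLI1 with 131, PORC with 99, GUN4 with 96, CHLD with 42 and PORA with 15. CHLH therefore led in reads but not in distinct reads, and PORC and GUN4 changed places, whereas CHLD and PORA were lowest by both counts. The number of distinct reads also depends on how many starts a gene offers. The most used start held from 6.35% of sense reads in CHLM to 42.2% in CHLH. The order by distinct reads is thus not a corrected order of mRNA amounts.

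**Figure D1:**
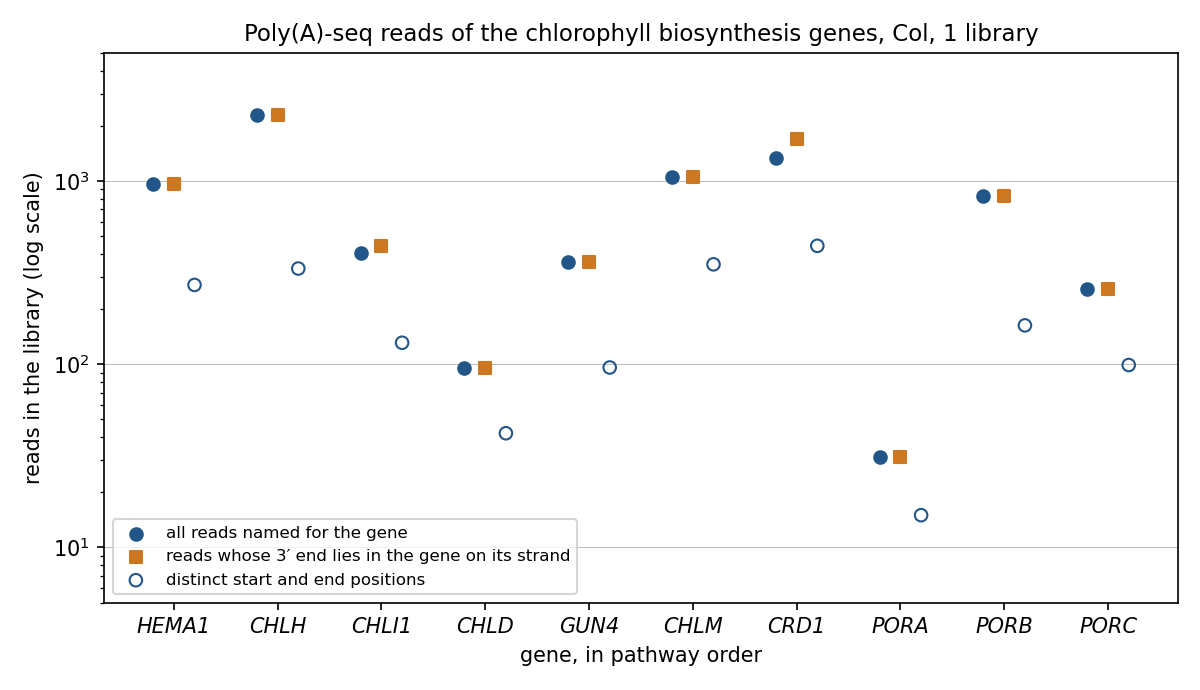
Reads of the 10 genes in pathway order, in 1 library on a log axis; filled circles are all reads named for a gene, squares are reads whose 3′ end lies in the gene on its strand, and open circles are distinct pairs of start and end. CHLH is highest in reads with 2292 and CRD1 highest in distinct reads with 443, PORA is lowest by every count, and the square stands clearly above the circle only for CRD1 (1705 beside 1337).

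The counts of CRD1 and CHLI1 depended on a neighbouring gene. The last 147 nt of CRD1 overlap AT3G56950 (SIP2;1, an aquaporin gene) on the opposite strand, and 378 reads that carried the name of SIP2;1 ended on the strand of CRD1 within CRD1. Of these, 118 ended at the most used end of CRD1, where 281 reads carried its own name. Given by position, CRD1 had 1705 reads. In CHLI1 the last 116 nt overlap AT4G18465, and 42 reads named for that gene ended in CHLI1 on its strand, which gave 441 reads by position. GUN4 gained 2 reads in this way and the other 7 genes kept their counts of sense reads.

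The deposited mapping quality differed between genes with 1 and genes with several annotated transcripts. CHLI1, CHLD, GUN4 and HEMA1 have 1 annotated transcript each, and a mapping quality of 10 or more was reached by 87.6 to 100% of their reads. The other 6 genes have 2 to 6 annotated transcripts, and the share was 23.4% in CHLM, 20.9% in PORB, 3.23% in PORA, 0.391% in PORC and 0 in CHLH and CRD1. The reads of CHLH and CRD1 were divided almost evenly between the transcript names, with 1157 and 1135 in CHLH and 630 and 707 in CRD1. The placed sequence of 7600 of the 7606 sense reads was found only once in the genome, the other 6 being reads of HEMA1. In the 6 genes with several transcripts, the placed sequences of reads of low mapping quality thus lay at 1 place in the genome. The count covers the placed genome sequence and not the sequenced bases themselves. Overlapping genes share part of that sequence, and reads named for such genes ended in CRD1, CHLI1 and GUN4.

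By reads, GUN4, CHLH, PORC and PORB had the largest shares at 1 base and CHLM, CRD1, HEMA1 and CHLD the smallest. With repeated reads counted once, CHLH fell among the lowest. GUN4, PORC and PORB stayed above CHLM, CRD1, HEMA1 and CHLD but were no longer set apart from PORA and CHLI1. In GUN4, 228 of 360 sense reads (63.3%; 58.1 to 68.3%) ended at the same base. In CHLH it was 1225 of 2290 (53.5%; 51.4 to 55.6%), in PORC 127 of 256 (49.6%; 43.3 to 55.9%) and in PORB 372 of 831 (44.8%; 41.3 to 48.2%). At the other side, CHLM had 203 of 1055 (19.2%; 16.9 to 21.8%), CRD1 281 of 1327 (21.2%; 19.0 to 23.5%), HEMA1 215 of 962 (22.3%; 19.8 to 25.1%) and CHLD 22 of 95 (23.2%; 15.1 to 32.9%). CHLI1 with 166 of 399 (41.6%) and PORA with 11 of 31 (35.5%) lay between. Over all genes with at least 20 reads the median share was 34.5% (quartiles, 25 and 48.5%). The 10 genes thus lay on both sides of it, with a median of 38.5%. With repeated reads counted once, the share in CHLH was 12.0% (40 of 333), close to 12.0% in CRD1, 12.2% in HEMA1 and 11.1% in CHLM. It was 16.7% in CHLD, 25.2% in CHLI1, 25.8% in PORB, 32.3% in PORC and 33.3% in both GUN4 and PORA. No median over all genes is given for this count.

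A share at 1 base does not show how many other ends there were. The number of different ends, from 8 in PORA to 73 in CHLM, depends on depth, so the number expected in a random draw of 31 reads was computed for each gene. CHLM had 15.6 and CRD1 14.0, more than 97.1% and 91.1% of the 7407 genes with at least 31 reads, for which the median was 9.78. HEMA1 had 12.3 and CHLH 11.5. The other 6 genes had 7.63 (GUN4) to 8.97 (PORC), below the median. CHLH had 63 different ends in all, and GUN4 had the fewest at equal depth.

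**Figure D2:**
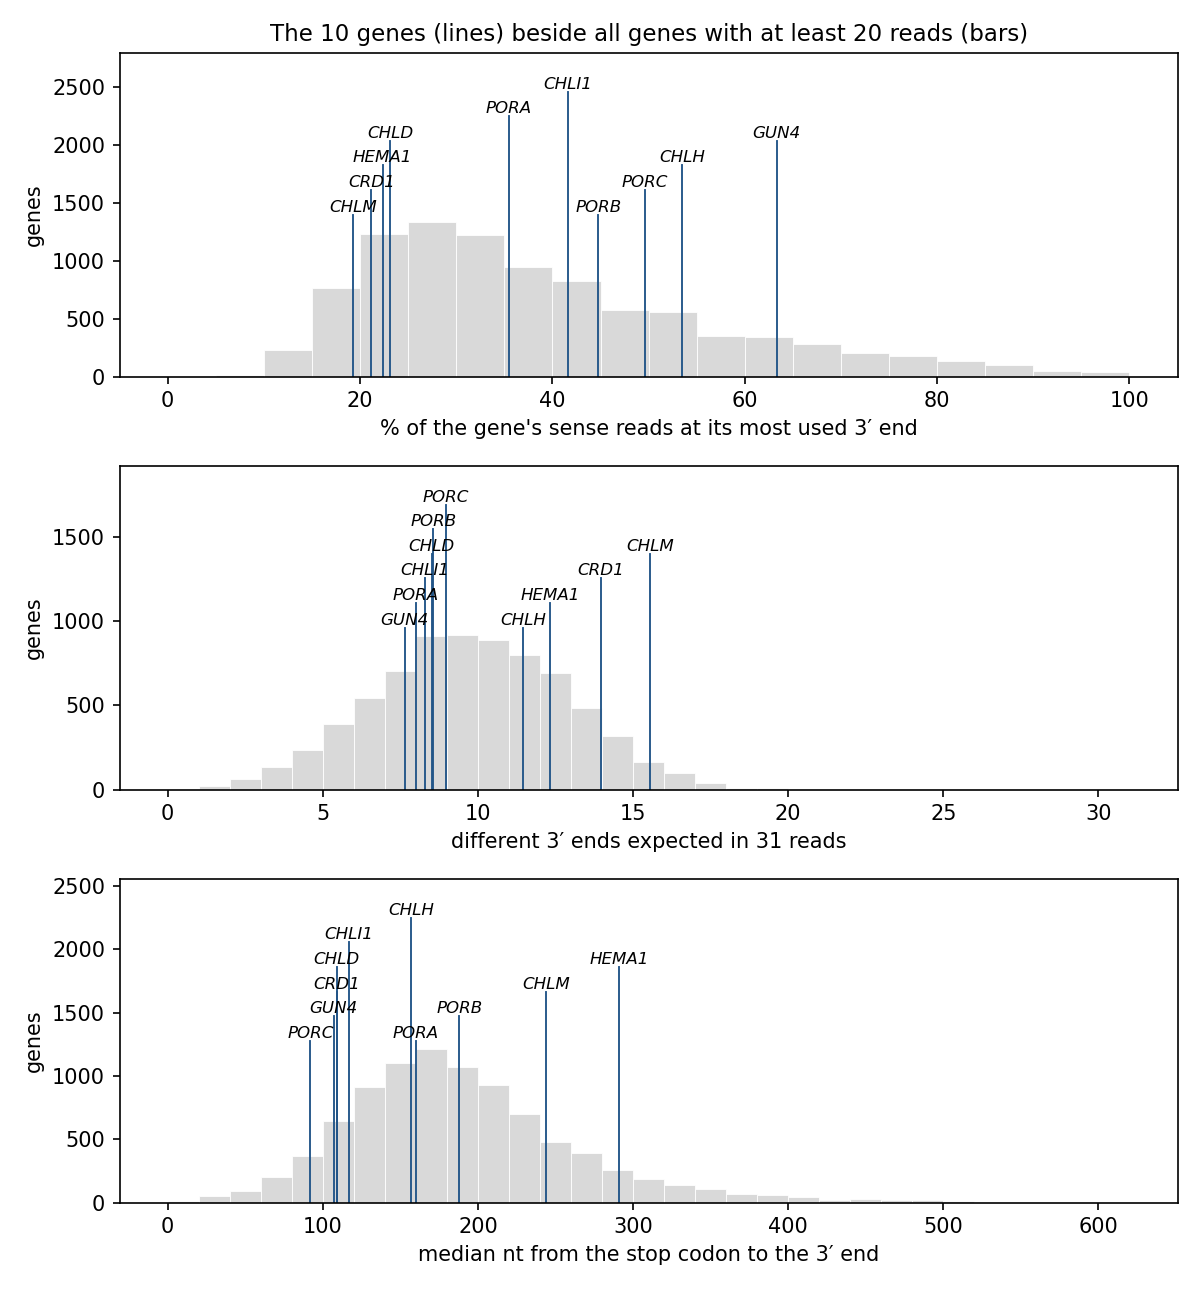
Each of the 10 genes (blue lines) beside histograms of all genes (grey bars, number of genes) for 3 measures: the share of sense reads at the most used 3′ end, the number of different ends expected in 31 reads (genes with at least 31 reads), and the median distance from stop codon to 3′ end in nt, measured as in the text (values beyond the axis are not drawn). CHLM and CRD1 stand at the right of the middle panel with 15.6 and 14.0, and HEMA1 with 291 nt and PORC with 92 nt are the outer members of the lowest panel.

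Measured along isoform 1, the used 3′-UTRs were mostly shorter than the median of all genes. From the last base of the stop codon to the 3′ end along isoform 1, or along another isoform where isoform 1 does not hold the end, the median over reads was 92 nt in PORC, 107 in GUN4, 109 in CHLD, 109 in CRD1, 117 in CHLI1, 157 in CHLH, 160 in PORA, 188 in PORB, 244 in CHLM and 291 in HEMA1. Over all genes the median was 179 nt (quartiles, 139 and 227). PORC, GUN4, CHLD, CRD1 and CHLI1 were thus below the lower quartile and CHLM and HEMA1 above the upper one. The values of CHLH and PORB depended on the isoform. CHLH isoform 2 has an earlier stop codon in the same last exon (4387920, beside 4387567 in isoform 1), from which the median was 510 nt, and the names on the reads did not separate these isoforms. In PORB the 188 nt include an intron of isoform 2, and the median along isoform 2 was 81 nt over the 713 reads whose end lies on it. In PORC, where both isoforms gave 92 nt, the 3′-UTR was shorter than in all but 7.08% of genes.

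**Figure D3:**
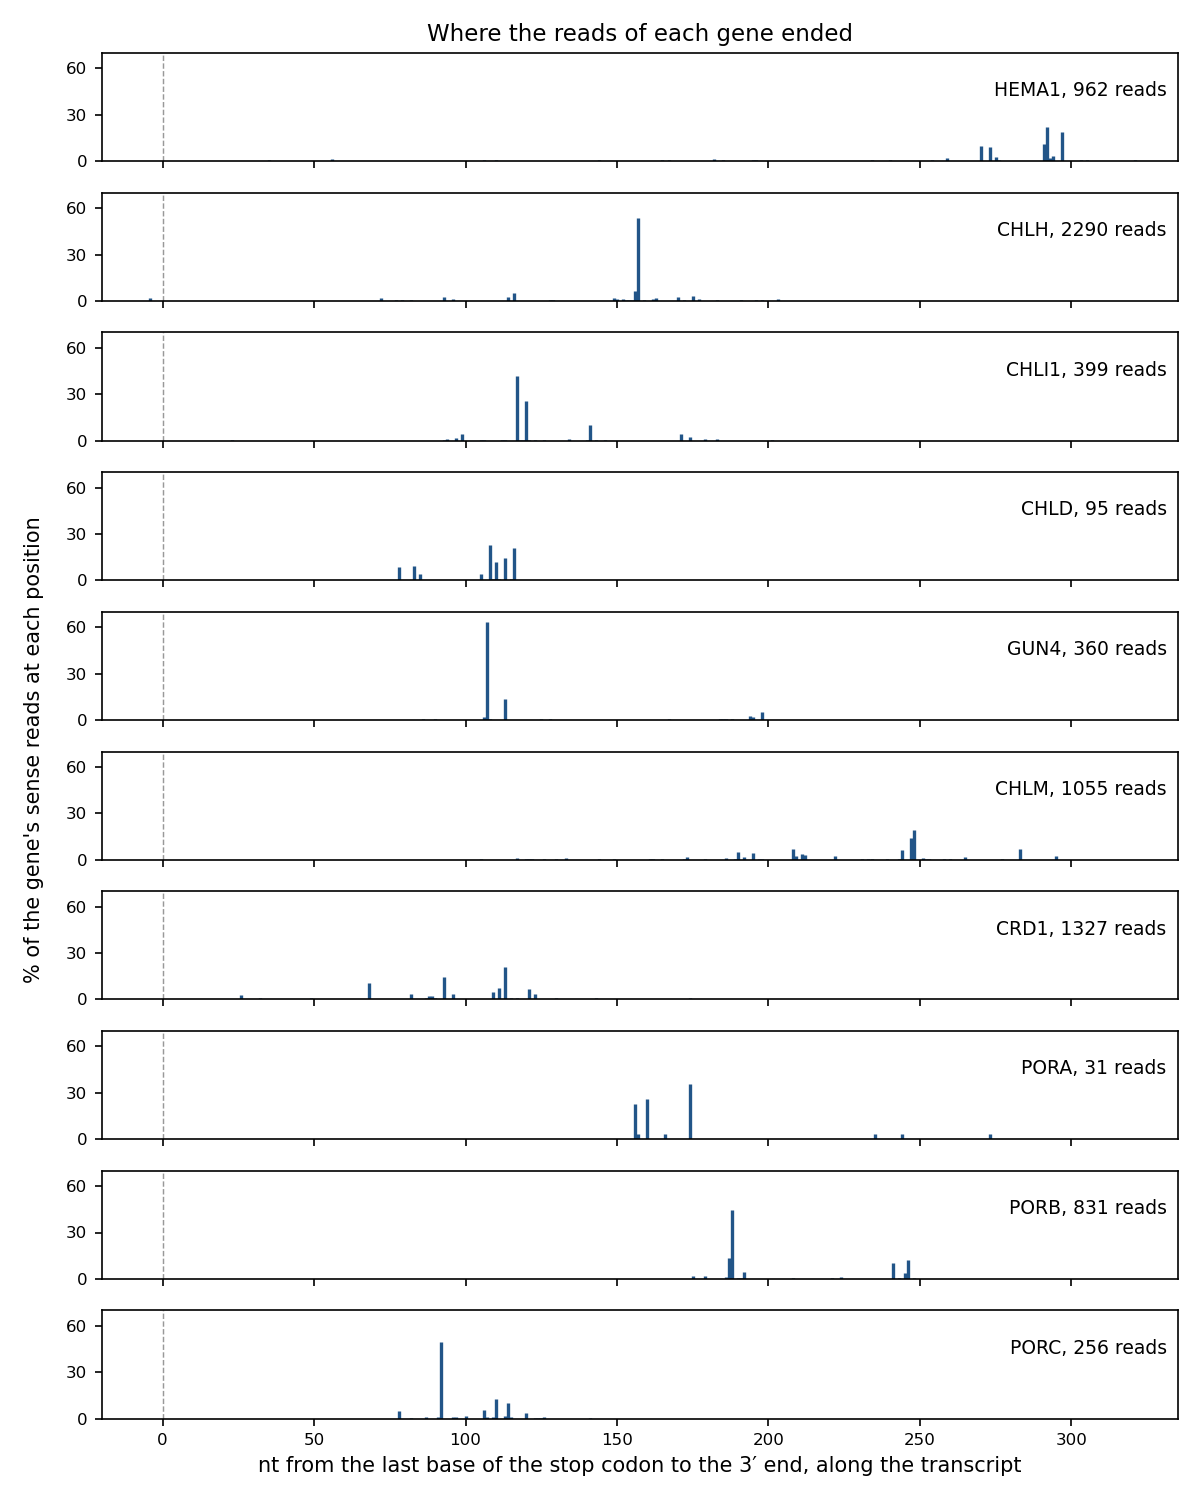
Share of each gene's sense reads (%) at each position, by distance in nt along the transcript from the last base of the stop codon of isoform 1 (dashed line), 1 panel per gene in pathway order; in CHLM, ends inside the 3′-UTR intron and ends behind it overlap on this scale, and 1 CRD1 read far inside the coding sequence is not drawn. GUN4, CHLH and PORC have 1 tall line each, at 107, 157 and 92 nt, whereas the lines of HEMA1 gather between 270 and 297 nt and those of CRD1 spread from 26 to 123 nt.

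CHLM was the gene with the clearest choice between separate groups of ends. Of its 1055 reads, 253 (23.98%; 21.4 to 26.7%) carried the name of isoform 2 and ended at chromosome 4, 12878203 to 12878359, which is 75 to 231 nt behind the stop codon. The other 802 (76.0%) carried the names of isoforms 1, 3, 4 and 5 and ended at 12878536 to 12878675, a genomic distance of 408 to 547 nt. Between them no read ended, but part of this gap is set by the annotation. The deposited alignments lie on annotated transcripts, and isoform 2 stops at 12878359, the last proximal end. The last exon of isoform 3 starts at 12878339 and that of isoform 1 at 12878382. Reads that start in the intron before these exons and run past 12878359 could not be listed, so the shares of the groups also depend on the annotation. In isoform 1 the stretch from 12878146 to 12878381 (236 nt) is an intron of the 3′-UTR, and every one of the 253 reads both started and ended inside it. They were thus from RNA that still held a part of this stretch. Of these reads 247 had a mapping quality of at least 10, and of the 802 none did.

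The most used end of each group is shown to compare what led up to it, on TAIR10.1, plus strand, with the same use of capitals. A minor end of the distal group is added because an AATAAA lies before it.
CHLM proximal, chr4:12878294-12878323: agtttattagaatttatgcttcttcatatc
CHLM distal, chr4:12878583-12878612: gtccaaaaacatgtctatacttttctaccc
CHLM distal minor, chr4:12878618-12878647: tgtgcatagtttaaAATAAAaaggaaattg
The proximal group was scattered, with 48 of 253 reads (19.0%) at 12878323 among 37 different ends. The distal group had 203 of 802 (25.3%) at 12878612 among 36 ends, and 74 reads ended at 12878647 behind the AATAAA. That minor end is the last annotated base of isoform 4. Among the 10 genomic bases behind it 7 were A, so the start of the tail cannot be placed exactly there. As distinct reads the groups numbered 106 and 245. None of the reads of the 10 genes spanned an exon junction, so splicing of the intron in the distal transcripts was not seen directly. A transcript that keeps the intron and ends at the distal site is not among the annotated isoforms, and reads from it that start behind the intron would carry the distal names.

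**Figure D4:**
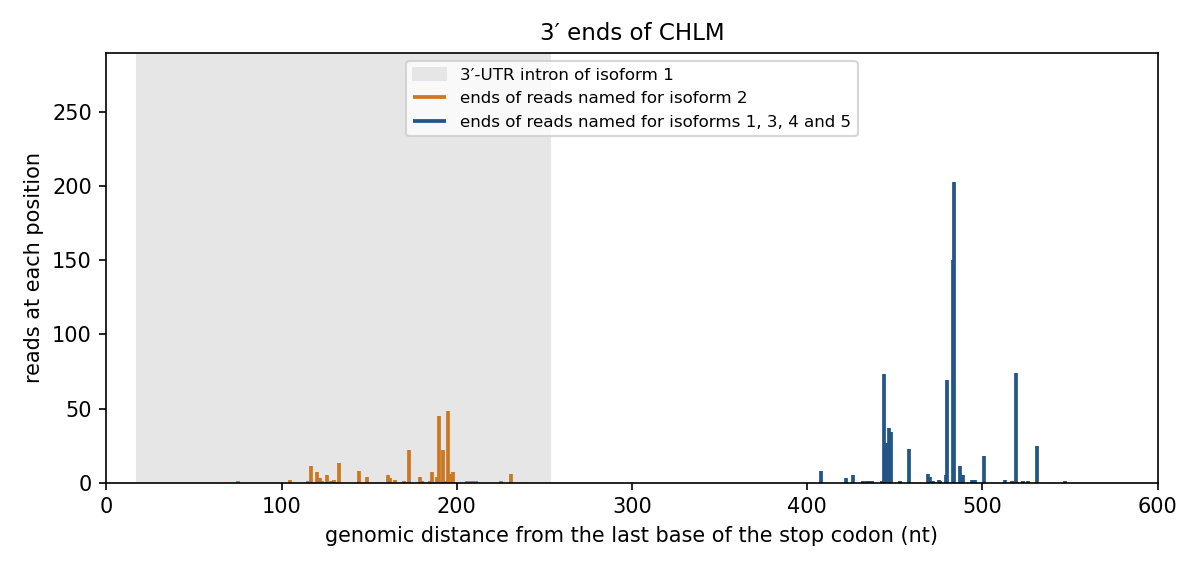
Number of CHLM reads ending at each position by genomic distance in nt from the last base of the stop codon; orange lines are reads named for isoform 2, blue lines those named for isoforms 1, 3, 4 and 5, and the grey area is the 3′-UTR intron of isoform 1. All 253 reads of isoform 2 end within the grey area, with up to 48 at 1 position, and the other 802 end behind it, with 203 at the tallest line.

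PORB used 1 main end and a second cluster behind it. Joining ends within 24 nt or within 10 nt of each other put both into 1 site, with 829 and 824 reads. Besides the 372 reads at 13727295 and 113 at the base before it, 102 reads ended at 13727353 and 83 at 13727348, 58 and 53 nt downstream of the main end. The bases that lead up to both are shown because only the upstream end of PORB has the AATAAA.
PORB main, chr4:13727266-13727295, plus strand: aagaAATAAAaatggcgaatctttagcttt
PORB downstream, chr4:13727324-13727353, plus strand: tcagtAATATAtactctgttttttcatctt
The second isoform of PORB has a 3′-UTR intron, from 13727118 to 13727224, and ends at 13727352. Of the 831 reads, 61 (7.34%) held a base inside that intron and 116 (14.0%) ended beyond isoform 2, which only isoform 1 holds. The other 654 (78.7%) were held by both and were named 333 times for isoform 1 and 321 times for isoform 2. The names on PORB reads therefore do not tell its isoforms apart.

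When ends within 24 nt of each other were joined into sites and at least 2 reads were asked for, GUN4, CHLI1, HEMA1, PORA, CHLH and PORB had a smaller site apart from the main one. GUN4 had 52 of 360 reads (14.4%; 10.98 to 18.5%) at a distal site whose most used end lay 198 nt behind the stop codon, beside 107 nt for the main end. CHLI1 had 35 of 399 (8.77%) at a distal site, most often 171 nt behind the stop codon. This stretch is the one shared with AT4G18465, and with the reads of that name included the ends of CHLI1 were joined into 1 site with 440 of 441 reads. HEMA1 had 21 of 962 (2.18%) close to the stop codon, at 56 nt most often, PORA had 2 of 31 downstream of its main site, and PORB had 2 of 831 upstream of it. PORC, CHLD and CRD1 had 1 site each. These calls changed with the joining distance. With 10 nt in place of 24 nt, CHLD had 2 sites (22.1% and 77.9% of reads), CRD1 had 2 (6.56% and 93.3%), HEMA1 had 7 and CHLM had 8, of which the main one held 45.6% of reads beside 76.0% with 24 nt.

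CHLH had 36 reads (1.57%; 1.10 to 2.17%) that ended at a single base, 4387571, 4 nt before the last base of the stop codon of isoform 1. Of these, 22 carried the name of isoform 1, which has no stop codon before this end, and 14 that of isoform 2, in which the end lies 349 nt behind the stop codon in the 3′-UTR. The end is shown because its place in the transcript differs between the isoforms.
CHLH end at the isoform 1 stop codon, chr5:4387571-4387600, minus strand: ggtggaagacaagatcgaagggatcgatcg
The 36 reads had 9 different starts, and 6 of the 10 genomic bases that follow were A. Over the 10 genes 37 reads ended at or before the last base of the stop codon of isoform 1, the other being from CRD1. Ends followed by at least 7 A among the next 10 genomic bases or by a run of 6 A, where a tail cannot be placed exactly, were seen in 190 of 7606 reads, 96 of them in CHLM and 84 in CHLH.

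The last base of a read differed by gene. Over the 7606 sense reads it was T in 41.2% (40.1 to 42.3%) and the next genomic base was A in 77.0% (76.1 to 78.0%). The last base was T in 82.9% of PORB reads and in 10.6% of GUN4 reads, in which C took 85.0%. The next base was A in 95.2% of CHLI1 reads and 94.5% of PORC reads but in 54.8% of HEMA1 reads and 60.6% of CHLM reads. These shares follow the few bases where most reads of a gene ended. At the other end of the reads, RNase T1 cuts behind G, and the base before the start of a read was G in 16.6% of the reads of these genes beside 19.7% over the library. The annotated 3′-UTRs of these genes held 14.7 (CHLI1) to 19.3% G (PORC), so G before read starts was about as common as in them.

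Among 31 other genes of tetrapyrrole metabolism, 28 had a read and 26 had at least 20. Their median was 60 reads, beside 617 for the 10 genes, and both lists were chosen with earlier results of these data known. The 3 with the most reads were CHLP (5572), the geranylgeranyl reductase that makes the phytol tail of chlorophyll, YCF54 (1377), a partner of the cyclase, and HO1 (486), a heme oxygenase on the way to the phytochrome chromophore. By name, CRD1 had slightly fewer reads than YCF54 (ratio of CRD1 to YCF54, 0.971), whereas by position CRD1 had 1705. Only CHLP and YCF54 exceeded the median of the 10 genes. No read was listed for HEMA3, HEMB2 or HEMF2, each an additional copy of a gene for an early enzyme of the pathway. The 26 other genes with at least 20 reads had a median of 155 nt from stop codon to 3′ end. Their median share at the most used end was 36.8%, beside 137 nt and 38.5% for the 10 genes.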

How the data were processed

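Poly(A)-seq reads of 1 Col library were analysed. Adaptor, tail and 3 random bases were trimmed by the authors, who aligned the rest with Bowtie2. A tail had at least 5 A at its start and could hold up to 5 G among its A. The deposited alignments give positions on transcripts (unit other) and a mapping quality score, so ends beyond the last annotated base of a transcript could not be listed. The methods name TAIR10, but the build of the transcript sequences is not given in the sources used here. Positions were put on TAIR10.1 through RefSeq exons of the same name, and 2753402 reads could be placed. Placement was tested on simulated data (2000 of 2000 reads recovered). Distances used isoform 1 where the end lay on it, and medians per isoform were added after seeing the data. Shares have Clopper-Pearson intervals. Genes with at least 20 sense reads served for comparison. Named were all 10 genes, and of the list of other genes the additional copies of members, the 3 with most reads, those without reads and overlapping genes. Members and lists were chosen with earlier results of these data known. Python 3.11.15, numpy 2.4.6, pandas 2.3.3, scipy 1.17.1 and matplotlib 3.10.9 were used. Tail bases and lengths were not analysed here. Alternatives were computed for mapping quality, repeats, strand, assignment, windows, joining distance and motif.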

Additional observations from a re-analysis of the deposited data

Results flagged for a closer look

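Reads listed on the antisense strand entered no comparison above and are given here as values. For CRD1, 10 reads carried its name but ran antisense to it, and all 10 ended at 21078409 on chromosome 3, where 85 of the 89 reads of SIP2;1 that ended opposite CRD1 also ended. For CHLI1, 4 antisense reads were listed, 3 of them with their end at 10201803 on chromosome 4. AT4G18465, which lies on the strand of these 4 reads, has its last annotated base at 10201787. Over the library 125222 of 2786281 reads were listed antisense, beside 17 of 7623 for the 10 genes. CHLH had 2 antisense reads and GUN4 had 1.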

How the results depend on the processing

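Restricted to a mapping quality of 10 or more, the 7623 reads of the 10 genes became 2177, the share at the most used 3′ end went from 37.5% to 35.9%, the median number of sites from 2 to 1, the share with T as last base from 41.2% to 47.6% and with A as next base from 77.0% to 73.1%. With repeated reads counted once, 2611 reads remained (by transcript name) and 16.3% were at the most used end, which stayed the same base in every gene but PORA and CHLD. With distinct 3′ ends counted once, T was last in 50.1% and A next in 51.6%. Within 5 nt of the most used end lay 55.4% of reads, and with 1 base of difference allowed the hexamer was found in 7 genes rather than 2. Along isoform 2 where annotated, a setting chosen after seeing the data, the median length from stop codon to 3′ end over the 10 genes was 113 nt rather than 137 nt. At a mapping quality of 10 or more this median was 165.5 nt, without CHLH and CRD1, which had no such reads. Joined within 10 nt, the median number of sites was 3 rather than 2. The other overall values moved little, among them 8028 reads by position and, chosen after seeing the data, 37.0% at the most used end by position. Of 40 values for single genes, 16 moved. At the higher mapping quality CHLH, CRD1, the distal group of CHLM and the distal site of CHLI1 had 0 reads. PORA and PORC had 1 each, so the ends of all these could not be checked in that way. PORA rests on 15 distinct reads and CHLD on 42. Read numbers cover counting error only. No paired analysis was possible because there was 1 library and no second group.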
